A study of Mus musculus with 6 samples.

Results

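The genes of the major histocompatibility complex (MHC) and of antigen processing were examined in RNA-Seq data from mouse sciatic nerve. Members were all genes of the deposited expression table whose symbol starts with H2- (the mouse MHC), together with B2m, Cd74, Tap1, Tap2, Tapbp, Psmb8, Psmb9, Psmb10, Ciita and Nlrc5. This rule found 54 of 46603 genes, among them 31 class I heavy chain genes, 7 class II genes and 3 H2-DM genes. Nerves came from *Ep400ΔPNS* mice, which carried a conditional Ep400 allele together with a Dhh::Cre transgene (n = 3), and from control mice labelled with the conditional allele and no Cre (n = 3), all at postnatal day 9. Ep400 is a chromatin remodelling ATPase, and Dhh::Cre is active in Schwann cells (SCs), so the other cells of the nerve keep the gene. The strain is labelled as mixed 129SvJ/C57Bl/6J, while the methods describe a mix of C3H and C57Bl/6J. The RNA was that of whole nerves.

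The table holds 1 level per gene, the authors' mean over all 6 libraries of counts divided by library size factors. The other columns are the authors' own comparison of the genotypes and were not used here. All levels below therefore describe nerves of both genotypes together and carry no error, and *Ep400ΔPNS* and control nerves were not compared. Ep400 itself had a mean of 4490, and its level in each genotype was not analysed here. The means of all genes summed to 25.6 M, which stands for the normalized reads assigned to genes in an average library and not for all reads sequenced. Levels of different genes were compared per kilobase (kb) of annotated exon. The 8 SC markers had levels between 2905 and 521086 per kb, so the markers of the labelled tissue were present. Macrophage markers were all present, with 65.8 to 1346 per kb for 8 of 8 genes, and muscle markers reached 250 to 4519 per kb. Markers of dendritic cells ranged over 2.66 to 58.3 per kb, the highest being Zbtb46, with the next at 10.9. Those of B cells ranged over 0.689 to 169.9 per kb, the highest being Ighm, with the next at 21.7. Those of T cells ranged over 0.148 to 26.7 per kb, the highest being Cd4, with the next at 1.58. No gene of these lists was at 0, but Cd8a had only 3 reads in all 6 libraries. In RNA of a whole nerve, fewer cells of a type and less RNA per cell cannot be told apart, and the part of each cell type in the levels below was not tested.

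MHC class I molecules consist of a polymorphic heavy chain and β2-microglobulin, and they show peptides from the cytosol to cytotoxic T cells on nearly all nucleated cells. The peptides are cut by the proteasome, pumped into the endoplasmic reticulum by the TAP transporter and loaded with the help of tapasin. Class II molecules are pairs of an α and a β chain that are mainly made by professional antigen-presenting cells such as macrophages, dendritic cells and B cells. They travel with the invariant chain to endosomes, where H2-DM removes the remaining piece of that chain and lets peptides bind. The coactivator Nlrc5 acts on class I promoters and Ciita on class II promoters, and both are induced by interferon-γ.

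These promoters share short elements, and 37 of the 54 members had a RefSeq promoter (GRCm38.p6, 250 bases before to 50 bases after a start site). The Y box, letters CTGATTGG, is the site of the factor NF-Y, and 19 of the 37 held it on either strand, beside 4.70% of 27025 genes with such a window. The κB element GGGATTCCC, a site of NF-κB, was found in 4 members, H2-K1, H2-D1, H2-Q6 and H2-Q7, beside 0.414% of all genes. The core of the interferon-stimulated response element (ISRE) was searched as a single fixed pattern. Exact matches were in 3 of the 37, B2m, H2-T22 and H2-T23, beside 3.99% of all genes. Other forms of this element were not searched for. The count therefore does not show that H2-K1, H2-D1, H2-Q6, H2-Q7 or other members lack it. The interferon-γ activated site TTCNNNGAA was in 4 of the 37, H2-DMb2, H2-M11, H2-M3 and Psmb8. This count was near the share over all genes, 9.55%, and the ISRE count rested on few genes. A match is a run of letters and does not show that a factor was bound.

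The κB element is printed for the 4 class I genes that hold it, and for H2-Q6 and H2-Q7 the stretch runs on to the Y box, with each element in capitals. H2-K1 is shown at chr17:34000432-34000461 (minus strand), H2-D1 at chr17:35262920-35262949, H2-Q6 at chr17:35424674-35424806 and H2-Q7 at chr17:35439019-35439150 (plus strand). On the strand of these genes the Y box reads CCAATCAG, and it lies outside the stretches of H2-K1 and H2-D1. The stretch of H2-D1 lies before its RefSeq start but overlaps an exon of the gene model used for its level.
H2-K1: gctgGGGATTCCCcatctccacagtttcac
H2-D1: gctgGGGATTCCCcatctcctcagtttcac
H2-Q6: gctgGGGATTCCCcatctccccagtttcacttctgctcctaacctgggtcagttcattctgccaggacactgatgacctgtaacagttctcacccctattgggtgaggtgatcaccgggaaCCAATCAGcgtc
H2-Q7: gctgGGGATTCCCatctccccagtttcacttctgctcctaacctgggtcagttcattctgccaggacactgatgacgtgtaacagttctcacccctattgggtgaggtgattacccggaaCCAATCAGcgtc
The Y box began 118 bases after the κB element in H2-K1, 117 bases after it in H2-D1 and H2-Q6 and 116 bases after it in H2-Q7. The levels of these 4 genes differed widely, with 493, 521, 8.32 and 11.3 per kb in the order printed.

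The promoters of 3 of the 7 class II genes, H2-Aa, H2-Eb1 and H2-Eb2, held the Y box, here in capitals and in the other orientation. H2-Ab1, H2-Ea-ps, H2-Pa and H2-Pb had no entry in the promoter table. H2-Aa is shown at chr17:34287859-34287923 (minus strand), H2-Eb1 at chr17:34305756-34305820 and H2-Eb2 at chr17:34325523-34325587 (plus strand).
H2-Aa: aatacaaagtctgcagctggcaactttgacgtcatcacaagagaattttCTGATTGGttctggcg
H2-Eb1: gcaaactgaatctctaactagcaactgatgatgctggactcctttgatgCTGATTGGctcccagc
H2-Eb2: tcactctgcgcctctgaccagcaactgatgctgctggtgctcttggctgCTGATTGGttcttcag
H2-Aa and H2-Eb1 had levels of 72.3 and 99.99 per kb, whereas H2-Eb2 with the same element had 2 reads in all 6 libraries.

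The interferon response core is printed for B2m, H2-T23 and H2-T22, and the Y box for Psmb9. B2m is shown at chr2:122147537-122147587 (plus strand), H2-T23 at chr17:36032802-36032831, H2-T22 at chr17:36042913-36042942 and Psmb9 at chr17:34187331-34187360 (minus strand).
B2m: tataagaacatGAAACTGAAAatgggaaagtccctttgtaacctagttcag
H2-T23: tactgcTTTCTCTTTCataaagacacaaat
H2-T22: ttggcttagTTTCACTTTCgaatccccaac
Psmb9: cctgcaccgcgcgcagccgCTGATTGGaaa
In H2-T23 and H2-T22 the core lies on the opposite strand. The stretches of H2-T23 and Psmb9 lie before a RefSeq start but overlap exons of the gene models used for their levels. Psmb9 and Tap1 are neighbours read in opposite directions, and the Y box in the windows of both is the same site.

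Of the 54 members, 46 had a mean above 0 (85.2%, beside 65.8% of all genes in the table) and 33 had a mean of at least 10 (61.1%, beside 36.5% of all genes). Together they held 0.0720% of the summed means, and B2m alone held 46.2% of the members' sum. The 31 class I heavy chain genes held 23.7% of that sum, the 7 class II genes 5.60%, Cd74 6.78% and the 3 H2-DM genes 5.06%. Among members above 0, the median level was 7.002 per kb for class I heavy chains, 72.3 per kb for class II genes and 172 per kb for H2-DM genes, beside 14.8 per kb over all genes above 0. The median percentile of the mean was 49.3, 65.8 and 70.3 for these classes. A mean of 10 was reached by 15 of 31 class I heavy chain genes, 4 of 7 class II genes and 3 of 3 H2-DM genes.

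**Figure D1:**
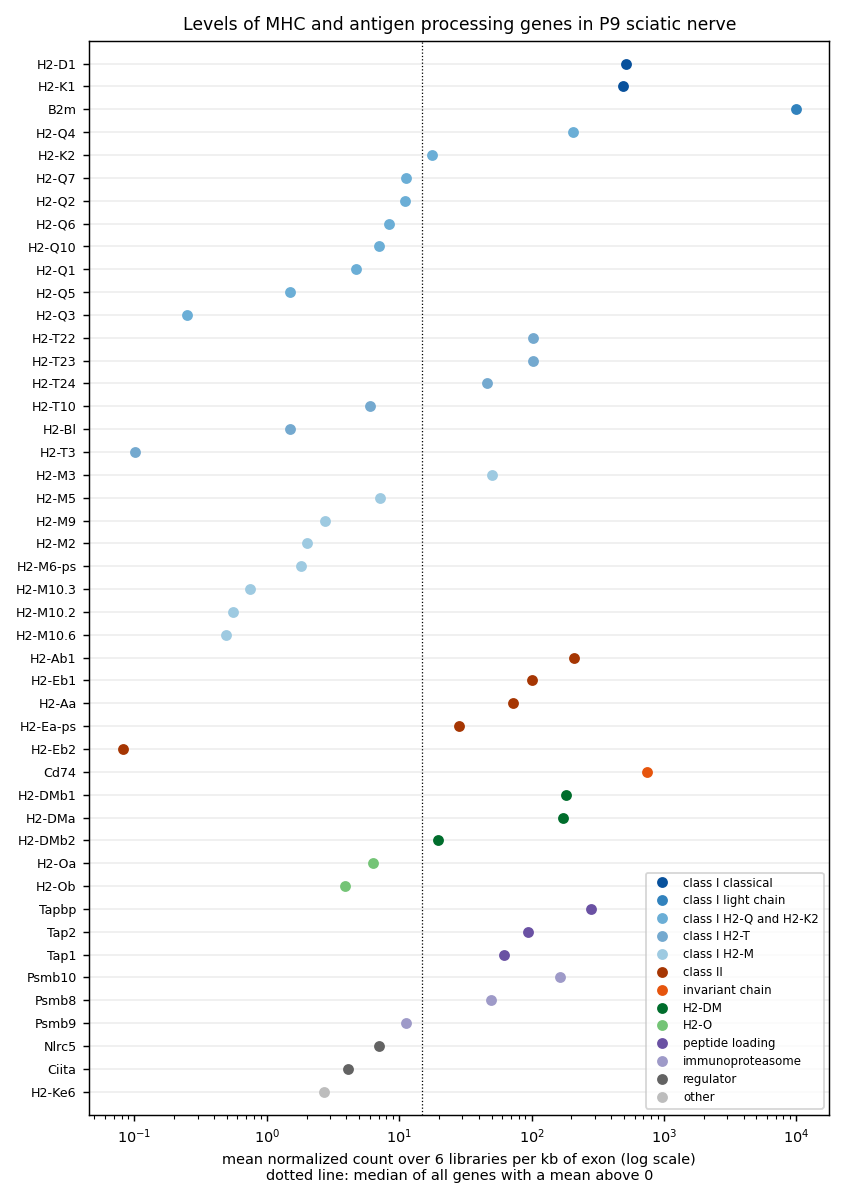
Level of each of the 46 members with a mean above 0, as the mean normalized count over 6 libraries per kb of exon on a log scale, grouped by class. Each point is 1 gene with no error, as only the pooled mean is used. B2m stands at 9901 per kb, H2-D1 and H2-K1 at 521 and 493 per kb, and most H2-Q and H2-M genes lie below the dotted line, the median of all genes above 0 (14.8 per kb).

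The classical class I genes H2-K1 (chr17:33996017-34000347) and H2-D1 (chr17:35262730-35267499), which present peptides to cytotoxic T cells, were the heavy chain genes with the highest levels. H2-K1 had a mean of 1448 (493 per kb) and H2-D1 a mean of 1344 (521 per kb). Their ratio per kb was 0.946 over merged exons and 1.21 over the longest transcript, so their order depended on the length used. B2m (chr2:122147686-122153083), the light chain shared by class I molecules, had a mean of 8515 (9901 per kb) and exceeded 98.9% of the genes above 0. Its level per kb was 20.1 times that of H2-K1 over merged exons and 12.8 times over the longest transcripts.

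Of the 9 H2-Q and H2-K2 genes, H2-Q4 had the highest level, with a mean of 534 (206 per kb), or 0.417 times the level of H2-K1 (0.266 times over the longest transcripts). H2-K2, annotated as a transcribed pseudogene, followed with a mean of 30.5 (17.8 per kb). H2-Q7 had a mean of 48.4 (11.3 per kb) and H2-Q6 one of 17.3 (8.32 per kb), and both belong to the genes of the Qa-2 antigen. H2-Q2 had 24.2 (11.1 per kb), H2-Q1 13.4 (4.70 per kb) and H2-Q10, the gene of a class I protein secreted by the liver, 30.4 (7.002 per kb). H2-Q5 and H2-Q3, both annotated as kinds of pseudogene, stayed at means of 2.37 and 0.153. The group thus had H2-Q4 far above the rest, which lay close to or below the median of all genes.

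Among the 6 H2-T genes, H2-T22 and H2-T23 had nearly the same level, with means of 353 and 299 (103 per kb each). H2-T22 encodes a ligand of γδ T cell receptors that holds no peptide, and H2-T23 encodes Qa-1, a ligand of inhibitory receptors on natural killer cells. H2-T24 had a mean of 101 (46.1 per kb). H2-T10, a close relative of H2-T22, had a mean of 20.6 (6.03 per kb), and the level of H2-T22 was 17.2 times that of H2-T10 per kb. H2-Bl and H2-T3 had means of 2.54 and 0.278.

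Of the 14 H2-M genes, H2-M3, which presents bacterial N-formyl peptides, was the one with the most reads, with a mean of 72.7 (50.5 per kb). H2-M5 had a mean of 19.3 (7.18 per kb). H2-M9, H2-M2, H2-M6-ps, H2-M10.3, H2-M10.6 and H2-M10.2 had means from 0.623 to 3.96. H2-M1, H2-M11, H2-M10.1, H2-M10.4, H2-M10.5 and H2-M10.5-ps1 had no read in any library, where 3 reads would give a mean of at most 0.551. The H2-M1 and H2-M10 families are known from sensory neurons of the vomeronasal organ.

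Among class II genes, the I-A genes H2-Ab1 (chr17:34257689-34269419) and H2-Aa (chr17:34282744-34287823) encode the β and α chain of the same molecule. H2-Ab1 had a mean of 534 (208 per kb) and H2-Aa one of 275 (72.3 per kb), a ratio of 2.88 per kb of merged exon and of 5.17 over the longest transcripts. H2-Eb1, the β chain of the I-E molecule, had a mean of 194 (99.99 per kb). Its partner is annotated as H2-Ea-ps, since the C57BL/6 haplotype has lost the start of this gene, which is intact in other haplotypes such as that of C3H. H2-Ea-ps had a mean of 29.1 (28.1 per kb) and reads in all 6 libraries, and which haplotypes the mice carried was not tested. H2-Eb2 had a mean of 0.278, and the pseudogenes H2-Pa and H2-Pb had no read. The 4 class II genes with a mean of at least 10 therefore were H2-Ab1, H2-Aa, H2-Eb1 and H2-Ea-ps. Cd74 (chr18:60803848-60812652), the invariant chain, had a mean of 1250 and a level of 745 per kb, 3.58 times that of H2-Ab1 (2.01 times over the longest transcripts). B2m had a level 13.3 times that of Cd74.

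H2-DM is a pair of an α and a β chain that catalyses the exchange of peptides on class II molecules. H2-DMa (chr17:34119541-34139101) had a mean of 593 (172 per kb) and H2-DMb1 (chr17:34153072-34160230) one of 306 (182 per kb). Their ratio was 0.944 per kb of merged exon and 1.36 per kb of the longest transcript, so that neither chain was clearly higher. The second β chain gene H2-DMb2 had a mean of 34.3 (19.6 per kb), and H2-DMb1 was 9.29 times higher per kb. H2-DMa had a level 2.38 times that of H2-Aa. H2-O, an inhibitor of H2-DM known mainly from B cells and thymus, had few reads, with means of 21.004 for H2-Ob (3.90 per kb) and 8.89 for H2-Oa (6.32 per kb). The level of H2-DMb1 was 46.7 times that of H2-Ob per kb of merged exon and 27.7 times over the longest transcripts.

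**Figure D2:**
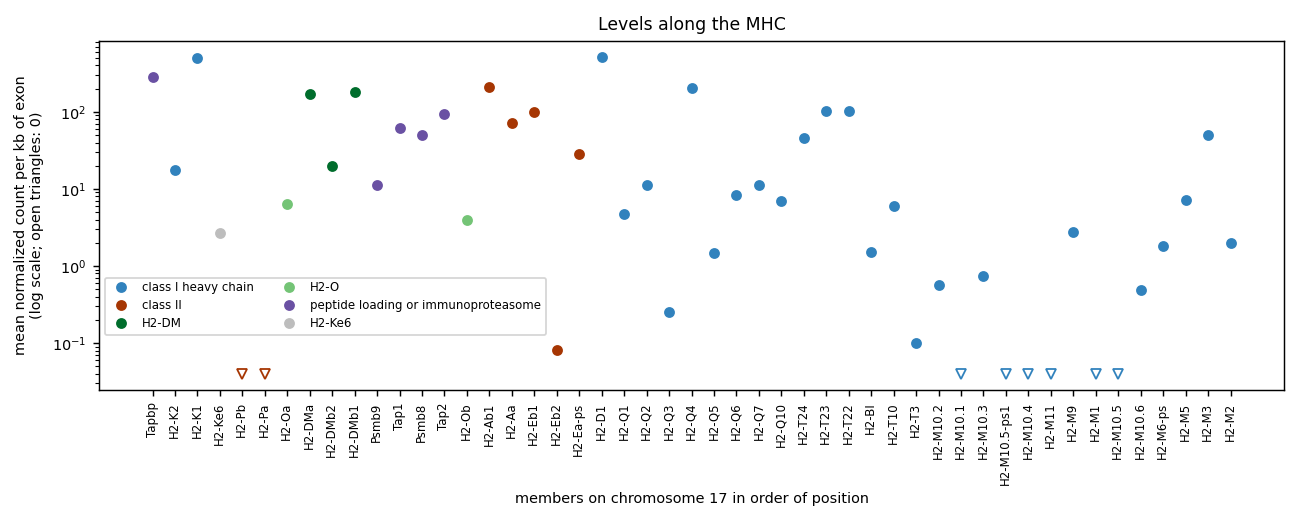
Level per kb of exon (log scale) of the 49 members on chromosome 17, in order of position from Tapbp to H2-M2, with 1 point per gene. Class II, H2-DM, transporter and immunoproteasome genes lie between H2-K1 and H2-D1, and the 8 open triangles are genes with no read, 6 of them H2-M genes.

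The transporter and loading genes were all present. Tap1 and Tap2, the subunits of the peptide transporter, had means of 338 and 356 (61.7 and 94.1 per kb). Tapbp, the tapasin gene, had a mean of 1019 (281 per kb), 2.99 times the level of Tap2. Of the general loading genes, the chaperones Calr and Canx and the disulfide isomerase Pdia3 had 5523, 2740 and 3551 per kb. Erap1, the aminopeptidase that trims peptides, and Tapbpl, a tapasin relative, had 44.6 and 47.6 per kb.

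The immunoproteasome subunits replace the constitutive catalytic subunits of the proteasome in cells exposed to interferon-γ. Psmb8 had a mean of 168 (49.7 per kb), and its level was 0.0880 times that of Psmb5, the subunit that it replaces (0.156 times over the longest transcripts). Psmb9 had a mean of 41.2 (11.2 per kb), 0.0107 times the level of its counterpart Psmb6 (0.00701 times over the longest transcripts). Psmb10 had a mean of 281 (165 per kb), 0.298 times the level of Psmb7. The 3 constitutive subunits thus exceeded their inducible counterparts at each position. The activator subunits Psme1, Psme2 and Psme3 had 419, 255 and 519 per kb.

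The coactivators had low levels, with a mean of 60.002 for Nlrc5 (7.06 per kb) and 39.1 for Ciita (4.10 per kb). The subunits of the DNA-binding RFX complex with which both work were more abundant, with 86.8 per kb for Rfx5, 212 for Rfxap and 133 for Rfxank. The interferon regulatory factor genes Irf1, Irf2 and Irf8 had 130.5, 119 and 39.5 per kb. The 5 endosomal enzymes of class II processing, Ctss, Ctsl, Ctsb, Lgmn and Ifi30, had between 623 and 2150 per kb. Of the class I-like genes outside the MHC, the neonatal Fc receptor Fcgrt had 1056 per kb and Mr1, which presents vitamin metabolites, 149 per kb, while Cd1d2 and Azgp1 had means of 0.690 and 1.03. The costimulatory genes Cd80, Cd86 and Cd40 had 4.40, 17.5 and 5.96 per kb, below the class II genes H2-Aa, H2-Ab1 and H2-Eb1.

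A low mean is a sum of whole reads divided by 6 size factors, so it can be split back into the reads of each library. All 28 members with a mean above 0 and up to 75 were split in a single way. The libraries found in this manner are named A to F from the largest size factor (1.20) to the smallest (0.908). They carry no genotype or mouse label, none was inferred from their values, and they were neither grouped nor tested. Values are normalized read counts, given for A to F in turn.

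H2-M3 had 49.96, 41.2, 50.7, 103.7, 88.1 and 102.4 normalized reads. Nlrc5 had 54.1, 43.0, 28.0, 64.3, 91.3 and 79.3, and Ciita had 30.8, 29.3, 21.7, 47.7, 62.3 and 42.9. Library C was the lowest for both coactivators and library E the highest. Psmb9 had 24.98, 26.6, 24.9, 63.3, 66.6 and 40.7.

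H2-Q7 had 29.1, 17.4, 9.32, 32.1, 105.3 and 96.9 normalized reads, a wide range from 9.32 in library C to 105.3 in library E. H2-Q6 had 4.16, 10.1, 6.21, 10.4, 22.6 and 50.7. H2-Q10 had 34.1, 20.1, 3.11, 39.4, 45.1 and 40.7. Library C was the lowest for H2-Q7 and H2-Q10, and library A for H2-Q6. H2-Q1 had 14.99, 6.41, 3.11, 31.1, 10.7 and 14.3, and H2-Q2 had 20.8, 14.7, 22.8, 47.7, 19.3 and 19.8. H2-Q1 and H2-Q2 were thus highest in library D, whereas H2-Q7 and H2-Q10 were highest in E and H2-Q6 in F. Summed over H2-Q1, H2-Q2, H2-Q6, H2-Q7 and H2-Q10, a list chosen after the values were seen, the libraries had 103, 68.7, 44.5, 160.7, 203 and 222. The dendritic cell markers Ccr7, Cd209a, Flt3, Itgax and Xcr1 summed to 65.8, 46.7, 46.6, 193, 165 and 126 in the same order. Much of that sum was Itgax, with 24.1, 25.6, 22.8, 106.8, 78.4 and 55.1, whereas Ccr7 had 9.99, 1.83, 9.32, 13.5, 11.8 and 2.20. The libraries thus did not stand in the same order for each marker of the list. The costimulatory genes Cd40, Cd80 and Cd86 summed to 94.1, 123, 47.6, 125, 114 and 99.1, and the T cell markers Cd3d, Cd3e, Cd3g and Cd8a to 14.99, 7.33, 2.07, 9.33, 20.4 and 16.5. Cd4, with a mean of 107, was above the same limit and is not in the T cell sum. The part of these cell types in the reads of the H2-Q genes was not tested.

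H2-Ea-ps had 19.2, 18.3, 6.21, 73.6, 31.1 and 26.4 normalized reads, with 42.1% of the total in library D. H2-DMb2 had 50.8, 17.4, 16.6, 39.4, 48.3 and 33.0. H2-Ob had 6.66, 10.1, 13.5, 32.1, 7.52 and 56.2, with 44.6% in library F. Its partner H2-Oa, with fewer reads, had 4.16, 12.8, 7.25, 8.30, 4.30 and 16.5. The highest values of H2-Ob thus stood in libraries D and F, and those of H2-Oa in B and F. H2-T10 was the most even of these members, with 17.6 to 25.9 normalized reads and a median of 20.03.

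**Figure D3:**
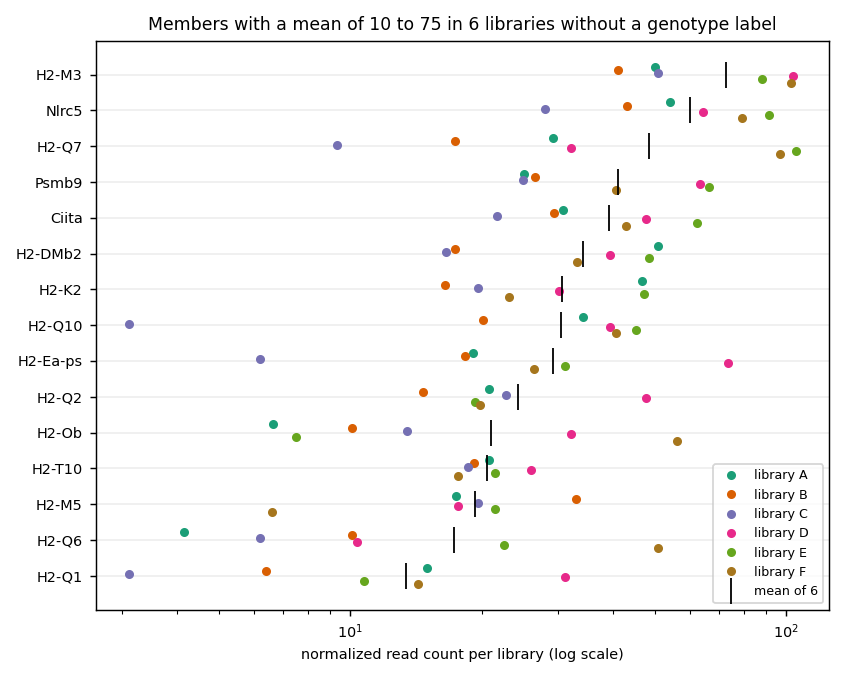
Normalized reads (log scale) of the 15 members with a mean of 10 to 75 in the 6 libraries, which carry no genotype label, with 1 coloured point per library and the mean as a black line. H2-T10 spans 17.6 to 25.9, while H2-Q7 spans 9.32 to 105.3 and H2-Q6 spans 4.16 to 50.7.

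By their medians, the 15 members with a mean of 10 to 75 were about as uneven as other genes of that range. Their highest library held a median of 27.0% of the normalized reads, beside 27.0% over 4213 other genes that could be split in a single way. The median ratio of the highest to the lowest library was 3.27, beside 3.52 for the other genes, and it was at least 3 for 10 of the 15 members (66.7%), beside 59.7% of the other genes. Of the members with fewer reads, H2-M10.6 had its 4 reads in library C alone, and H2-Eb2 and H2-T3 had 2 reads each in library A alone.

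Only reads with a unique position were counted, and MHC genes share long stretches of sequence. In mm10, 17 members had at least 10% of the 50-base stretches of their transcripts also in transcripts of another gene. The share was computed for the members alone, so this count has no background of all genes beside it. It includes H2-Ke6, which shared 70.5% of its stretches, all with the overlapping gene Gm20427. H2-T22 and H2-T10 shared 34.5% and 32.9% of their stretches, mostly with each other. H2-DMb1 and H2-DMb2 shared 22.7% and 24.8%, and the values of these pairs are uncertain to the degree that reads fell there. H2-Q5, H2-Q6, H2-Q7 and H2-Q4 shared 36.4%, 32.0%, 26.4% and 21.8%, against 9.63% for H2-K1 and 12.8% for H2-D1. B2m, Cd74, H2-Ab1, H2-Eb1, H2-DMa, Nlrc5 and Ciita shared none, and H2-Aa shared 0.488%. How far the alleles of these mice differ from the C57BL/6J reference was not tested.

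**Figure D4:**
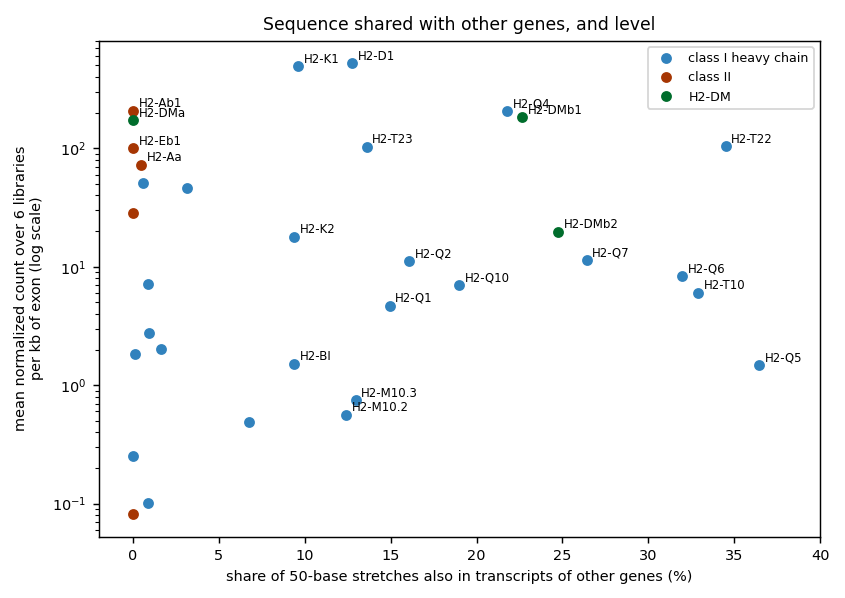
Share of the 50-base stretches of a gene found in transcripts of other genes (horizontal axis, percent) and level per kb of exon (vertical axis, log scale), for class I heavy chain, class II and H2-DM genes with a mean above 0. The class II genes lie at or near 0%, while H2-DMb1 and H2-DMb2 lie at 22.7% and 24.8% and the H2-Q genes other than H2-Q3 between 14.96% and 36.4%.

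Several members overlap a gene on the opposite strand, and no source used here states the strand setting of the counting. H2-DMa shares 360 exon bases with Brd2, Psmb9 and Tap1 share 212 with each other, Ciita shares 329 with Dexi and H2-T22 shares 1003 with A930015D03Rik. H2-T10, Tapbp, Tap2, Psmb8, H2-Q4, H2-Oa and Nlrc5 overlap antisense or long noncoding transcripts. H2-Ke6, which encodes a hydroxysteroid dehydrogenase and no MHC molecule, had a mean of 4.46 and shares 1419 of its 1643 exon bases with Gm20427 on the same strand.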

How the data were processed

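Total RNA of sciatic nerves from 3 *Ep400ΔPNS* and 3 control mice at postnatal day 9 was sequenced from stranded mRNA libraries. The authors aligned reads to mm10 with STAR 2.5.1, used HTSeq to count uniquely mapped reads per Ensembl gene and compared genotypes with DESeq2. The table's header and the methods name different Ensembl releases. The signal column deposited by the authors is a mean over 6 libraries of counts divided by size factors, although its header calls it raw. The deposited log2 fold changes, standard errors, Wald statistics, p-values and linear fold column are the authors' own comparison and were not used, so no genotype test was made. Levels were divided by merged exon lengths of GENCODE M21 (46091 of 46603 gene IDs and all 54 members matched). Each mean no larger than 75 was resolved into the whole reads behind it, for 6 libraries, with a tolerance of 1.2e-13. In a self-test, 100 of 100 simulated means were recovered. These means were built from the same size factors, so the self-test could not show an error in the size factors. Of 4264 other genes with a mean of 10 to 75, 4213 were split in a single way. Named are all members, with a level for each of at least 10, and the genes of lists for the pathway and for cell types. Some genes of these lists are not reported here. Members and lists were chosen with earlier results of these data known. The limit of 75, which was raised to include Nlrc5 and H2-M3, the comparison of shared stretches, the gene pairs set in ratio, the summed H2-Q list and the promoters printed were chosen after seeing the data. Promoter sequences are those of RefSeq on GRCm38.p6. Precision for single libraries is given as the reads themselves. Python 3.11.15 with numpy 2.4.6, pandas 2.3.3 and matplotlib 3.10.9 was used.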

Additional observations from a re-analysis of the deposited data

How the results depend on the processing

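Of the 54 members, 41 had a mean of at least 1, 20 had one of at least 50 and 25 had at least 10 per kb, against 33 with a mean of at least 10. The members' share of the summed means was 0.0861% without the 10 largest genes, 0.0722% without muscle markers and 0.0721% over genes with a symbol only. Over the longest transcript, the median level per kb was 7.03 for class I heavy chains, 85.2 for class II genes and 218 for H2-DM genes. With members of at least 10 only, it was 17.8 for class I heavy chains and 86.1 for class II genes, and it kept its value for H2-DM genes. Among genes with a mean of at least 10, the median percentile was 19.9 for class I heavy chains, 41.4 for class II genes and 46.5 for H2-DM genes. The order of the classes was the same in each of these settings. At least 10% of 100-base stretches were shared by 6 members, against 17 with 50-base stretches, an alternative added after seeing the data. With a limit of 37.5 in place of 75, all 23 members tried were split in a single way, and with a tolerance 10 times wider 24 of 28 were. Counts of promoter elements before the start site alone were 18 for the Y box and did not change for the others. No paired analysis was possible because the values used are means over all libraries and the split libraries carry no replicate number, and fits that leave out a replicate could not be run for the same reason. Depth limits the members with a mean under 10, for which counting error alone is large.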

Other observations

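In the 6 libraries without a label, H2-M3 was lowest in library B with 41.2 normalized reads and highest in library D with 103.7. H2-Q7 was lowest in library C with 9.32 and highest in library E with 105.3. Of the costimulatory genes, Cd40 had 8.33, 11.9, 8.29, 28.0, 30.1 and 35.2 normalized reads in A to F, Cd80 had 17.5, 22.9, 6.21, 20.7, 16.1 and 14.3, and Cd86 had 68.3, 87.9, 33.1, 76.7, 67.7 and 49.6, so that Cd80 and Cd86 were highest in library B and Cd40 in library F. Among the 15 members with a mean of 10 to 75, library C was the lowest for 8, library D the highest for 5 and library E the highest for 6. Among the 4213 other genes of this range, library C was the lowest for 829, library D the highest for 768 and library E the highest for 856. H2-M6-ps, a pseudogene, had 7 reads in library A, 6 in library B and none in the other libraries. H2-Ke6 had 11, 12 and 6 reads in A, B and F and none in C, D and E. Most of its exon bases overlap Gm20427 on the same strand, and how many reads this left uncounted was not tested.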
